A study of Mus musculus with 6 samples.

Results

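Cholesterol synthesis enzymes were followed in megakaryocyte-erythroid precursors (MEPs), the bone marrow cells that give rise to erythrocytes and platelets. The genes were chosen by name: every row of the expression table whose Ensembl identifier is paired with Hmgcs1, Idi1, Fdft1, Sqle, Lss, Cyp51 or Dhcr7 was taken, in all libraries. Of these 7 genes, 6 have values among the 12101 genes of the table, and all 6 passed the filter on low values. No identifier in the annotation used here was paired with Hmgcs1, which encodes the synthase of hydroxymethylglutaryl-CoA near the start of the pathway, so it has no expression value below. The study asked how the pluripotency factor NANOG acts on blood formation.

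The libraries were RNA-seq profiles of MEPs sorted from the bone marrow of adult Nanog-tg mice, labelled as CD-1 in strain. All mice carried M2-rtTA at the Rosa26 locus and a tetO-Nanog cassette at Col1a1, so the transgene responds to doxycycline (dox) in any tissue that expresses rtTA. In the dox-treated group (3 libraries) Nanog was induced by dox in the drinking water for 5 days. The untreated group (3 libraries) had the same genotype and received no dox, so an effect of dox itself and of NANOG, and effects within MEPs and in the rest of the animal, cannot be told apart. The sources do not say whether replicates came from separate mice or pools, so p-values measure the spread between these samples, which may be technical.

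Cholesterol is built from acetyl-CoA by way of mevalonate, isoprenoid pyrophosphates, squalene and lanosterol. The genes of the pathway are known targets of the sterol-regulated transcription factor SREBP-2, which moves to the nucleus when membrane sterol is low and acts together with NF-Y. Dividing blood precursors need cholesterol for new membrane, either made in the cell or taken up from lipoproteins.

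Promoter sequence from RefSeq was available for 5 of the 7 genes, Hmgcs1, Idi1, Lss, Cyp51 and Dhcr7. The 150 bases before the annotated start are shown to mark where they match motifs through which the pathway is known to be regulated. Coordinates are on GRCm38.p6, a later build than the one used for the expression table. Capitals mark the sterol regulatory element core TCACNCCAC and the NF-Y box CCAAT, each searched on both strands.
Hmgcs1, chr13:119690201-119690350, plus strand: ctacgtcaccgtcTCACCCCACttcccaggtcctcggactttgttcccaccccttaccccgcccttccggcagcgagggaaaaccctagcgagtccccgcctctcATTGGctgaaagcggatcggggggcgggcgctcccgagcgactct
Idi1, chr13:8885456-8885605, plus strand: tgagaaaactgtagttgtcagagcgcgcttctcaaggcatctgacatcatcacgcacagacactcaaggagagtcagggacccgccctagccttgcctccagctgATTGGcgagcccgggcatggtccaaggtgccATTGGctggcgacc
Lss, chr10:76531455-76531604, plus strand: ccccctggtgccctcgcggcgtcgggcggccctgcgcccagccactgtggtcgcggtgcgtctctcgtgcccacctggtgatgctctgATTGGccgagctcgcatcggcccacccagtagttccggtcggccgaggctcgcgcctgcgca
Cyp51, chr5:4104698-4104847, minus strand: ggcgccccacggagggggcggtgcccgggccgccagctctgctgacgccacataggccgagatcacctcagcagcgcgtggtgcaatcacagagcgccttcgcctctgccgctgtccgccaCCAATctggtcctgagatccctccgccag
Dhcr7, chr7:143830064-143830213, plus strand: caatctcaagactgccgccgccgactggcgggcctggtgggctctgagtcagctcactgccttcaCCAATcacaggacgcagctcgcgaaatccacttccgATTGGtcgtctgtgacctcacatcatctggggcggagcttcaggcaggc

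The search covered 250 bases before to 50 bases after each start. The sterol core was found in the Hmgcs1 window alone among 7 windows of the members (Dhcr7 has 3 starts, of which the one with NF-Y boxes is shown), and in 1.24% of all 32817 windows. An NF-Y box stood in 5 of the 7 windows against 37.4% of all windows, and the GC box GGGCGG in 6 of 7 against 35.6%. In 12 windows of other enzymes of the pathway, the sterol core was found in 0, the NF-Y box in 10 and the GC box in 10. None of these motifs contains another. The E-box CACGTG was in 1 of 7 windows of the members, in 2 of 12 of the other enzymes and in 7.15% of all windows. These matches describe letters only, and sterol elements that depart from the searched core were not looked for.

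The libraries held 11264803 to 16153600 reads on the listed genes. Levels are given in CPM, counts per 1000000 reads of each library's normalized size, with 0.5 reads added. The transgene matched the labels, with Nanog reaching 1247 ± 218 CPM under dox and 0.624 ± 0.442 CPM in the untreated libraries (mean ± SD of 3). All 7 MEP markers (Kit, Gata1, Klf1, Tfrc, Epor, Zfpm1 and Gfi1b) were detected, at a summed 1498 to 2040 CPM with dox and 2354 to 2712 CPM without. All 7 had a lower mean with dox, and 0 of them passed the test. At an unadjusted limma p under 0.05, 5 of 7 were lower, beside 13.6% of all genes. The groups did not overlap in the lower direction for 6 of 7, beside 18.2% of all genes. The 12 granulocyte-monocyte markers summed to 512.5 to 755.9 CPM with dox and 2402 to 5537 CPM without, and 10 of 12 fell. Among the other lists, 2 of 8 megakaryocyte markers rose and 1 fell. They summed to 457.7, 446.8 and 143.5 CPM in dox-treated replicates 1 to 3 and to 100.3 to 143.5 CPM without dox. Of 5 mast cell markers, 3 rose and 0 fell, with Fcer1a, Hdc, Cma1 and Tpsb2 not listed. The remaining 2 had a lower mean with dox. Their log2 fold changes were -3.42 for Gzmb (adjusted p = 0.0525 in limma's test) and -0.93 for Mcpt8, from 3.30 and 1.99 CPM without dox. In the lymphoid list 0 of 5 markers passed the test, with Cd3e, Cd3g and Pax5 not listed, and 1 of 7 late erythroid markers fell. Of all genes, 4.59% rose and 3.18% fell. The 16 proliferation genes summed to 4480, 4363 and 6651 CPM in dox-treated replicates 1 to 3 and to 6170 to 6937 CPM in the untreated libraries, so the overlap rests on dox-treated replicate 3. All 16 had a lower mean with dox, and 0 passed the test. The part of these shifts in the results on cholesterol genes was not tested. Dox-treated replicate 3 stood apart from its group, with a weight of 0.163 where an average library has 1.

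No member passed the test between dox-treated and untreated MEPs, and 5 of the 6 had a lower mean with dox. Sqle showed the largest decrease in mean, Lss the smallest, and Dhcr7 was the member with a higher mean. In limma's moderated test over 12088 genes, 0 members rose and 0 fell at an adjusted p under 0.05, where 4.59% of all genes rose and 3.18% fell. At an unadjusted p under 0.05 there was 1 member higher (Dhcr7) and 1 lower (Sqle) of 6, near the 15.6% of all genes that were higher and 13.6% that were lower at that limit. The median log2 fold change of the 6 members was -0.24, beside -0.03 for all genes tested. The groups did not overlap for 1 member in the higher direction and 0 in the lower, where 17.7% and 18.2% of all genes did so. In sorted cells measured in bulk, fewer cells of a type and less RNA per cell cannot be told apart.

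**Figure D1:**
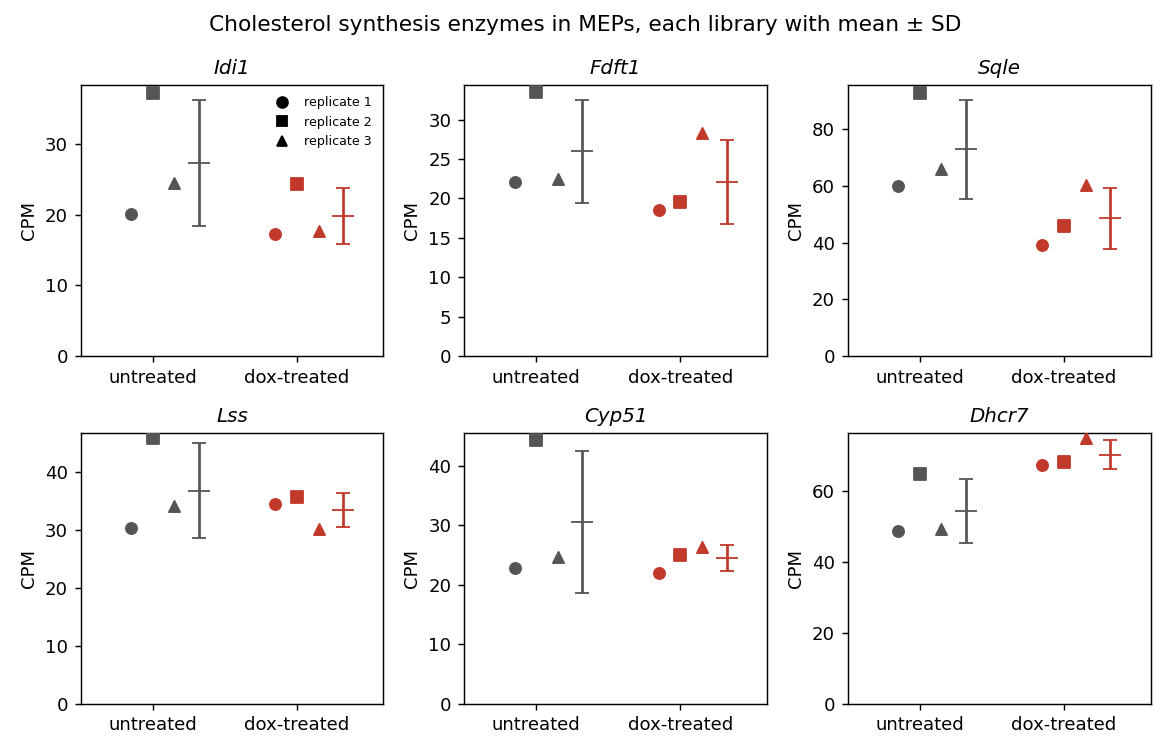
Level of each measured enzyme in CPM (vertical axes, from 0) in untreated (grey) and dox-treated (red) libraries. Points are libraries, with the shape giving the replicate, and bars show the mean ± SD of 3. Untreated replicate 2 is the highest library for every gene but Dhcr7, where the 3 dox-treated libraries lie above the untreated ones.

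Idi1 (ENSMUSG00000058258; chr13:8884852-8891641, plus strand, NCBIM37) encodes the isomerase that interconverts the isoprenoid pyrophosphates from which farnesyl pyrophosphate is made. It was at 17.2, 24.4 and 17.7 CPM in dox-treated replicates 1 to 3 and at 20.1, 37.3 and 24.5 CPM in untreated replicates 1 to 3. The groups overlapped, since dox-treated replicate 2 lay above untreated replicate 1 and level with untreated replicate 3. The log2 fold change was -0.43 (SE 0.27, 95% interval -1.09 to 0.22, limma adjusted p = 0.32).

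Fdft1 (ENSMUSG00000021273; chr14:63763990-63796630, minus strand) encodes squalene synthase, the first enzyme committed to sterols. Its levels were 18.5, 19.5 and 28.3 CPM with dox and 22.0, 33.6 and 22.4 CPM without. Dox-treated replicate 3 was above both untreated replicates 1 and 3, so the groups overlapped. The log2 fold change was -0.23 (SE 0.24, 95% interval -0.83 to 0.36, limma adjusted p = 0.55), and -0.42 without dox-treated replicate 3 (adjusted p = 0.19). Ctsb overlaps Fdft1 on the opposite strand, and reads of the pair cannot be told apart because strand use in counting is not given in the sources used here.

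Sqle (ENSMUSG00000022351; chr15:59146632-59162747, plus strand) encodes squalene epoxidase, a rate-limiting step of the later pathway. It stood at 39.1, 46.0 and 60.4 CPM with dox and at 59.9, 92.9 and 66.1 CPM without. The overlap was slight: dox-treated replicate 3 passed untreated replicate 1 by less than 1 CPM, and the other dox-treated libraries were below all untreated ones. Its log2 fold change was -0.59 (SE 0.23, 95% interval -1.16 to -0.01), with an unadjusted limma p of 0.0466 and an adjusted p of 0.16. When libraries were weighted by their quality in limma, Sqle passed the threshold (log2 fold change -0.67, adjusted p = 0.0207), in a fit that called 21.5% of all genes lower.

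Lss (ENSMUSG00000033105; chr10:75994333-76019883, plus strand) encodes the cyclase that forms lanosterol. It was at 34.3, 35.7 and 30.2 CPM with dox and read 30.2, 45.9 and 34.1 CPM in untreated libraries. Apart from untreated replicate 2, the libraries of both groups covered nearly the same range. The log2 fold change of -0.12 (SE 0.18, 95% interval -0.56 to 0.33, limma adjusted p = 0.69) turned to 0.06 without untreated replicate 2 and was -0.05 without dox-treated replicate 3.

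Cyp51 (ENSMUSG00000001467; chr5:4081145-4104746, minus strand) encodes the demethylase that acts on lanosterol. It was at 22.1, 25.0 and 26.4 CPM with dox and at 22.7, 44.3 and 24.6 CPM without. Again the groups overlapped outside untreated replicate 2, which was the only library above 30.6 CPM, the untreated mean. The log2 fold change of -0.26 (SE 0.27, 95% interval -0.92 to 0.41, limma adjusted p = 0.55) turned to 0.04 without that library.

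Dhcr7 (ENSMUSG00000058454; chr7:151009050-151034315, plus strand) encodes a reductase of the last steps, which turns dehydrocholesterol into cholesterol. Its levels were 67.5, 68.2 and 75.0 CPM with dox and 48.8, 64.9 and 49.4 CPM without. The lowest of the dox-treated libraries exceeded the highest untreated one, although untreated replicate 2 came within 3 CPM of the lowest dox-treated library. The log2 fold change was 0.38 (SE 0.15, 95% interval 0.02 to 0.74), with an unadjusted limma p of 0.0411 and an adjusted p of 0.15. The exact permutation test gave p = 0.1, the smallest value that 3 against 3 libraries allow. Dhcr7 passed the threshold with library weights (0.40, adjusted p = 0.0249) and without both dox-treated replicate 3 and untreated replicate 2 (0.47, adjusted p = 0.0323), the latter chosen after the data were seen. Those fits called 20.8% and 13.5% of all genes higher.

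The spread between libraries was wider than counting error for each member. The members had 233 to 1257 reads in a library, which gives a counting SD of 2.82% to 6.55%, for counting error only. The exact permutation test of the other 5 members gave p from 0.2 (Idi1 and Sqle) to 0.8 (Lss).

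Per kilobase of the longest annotated protein-coding transcript, Sqle and Dhcr7 were the most abundant members in both groups. In untreated MEPs the level of Sqle was 26.5 ± 6.36 CPM per kb (SD, n = 3) and that of Dhcr7 19.3 ± 3.25, a difference slightly above 1 SD of Sqle. Idi1 (9.53 ± 3.11), Fdft1 (9.10 ± 2.29), Lss (7.87 ± 1.75) and Cyp51 (7.77 ± 3.04) followed, and neighbours in that order differed by less than their SD. With dox, Dhcr7 came first at 24.9 ± 1.47 CPM per kb and Sqle the next at 17.6 ± 3.94. The remaining levels per kb with dox were 7.73 ± 1.87 for Fdft1, 7.16 ± 0.615 for Lss, 6.90 ± 1.40 for Idi1 and 6.23 ± 0.565 for Cyp51, again with neighbours closer than the larger SD of the pair.

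Within the untreated group, the members were high together in replicate 2. All 6 members were above the mean of the other untreated libraries there, by 0.40 (Dhcr7) to 0.91 (Cyp51) on the log2 scale, with Idi1 at 0.75, Fdft1 at 0.60, Sqle at 0.56 and Lss at 0.52. Of all genes tested, 50.8% were above the other untreated libraries in that library, and 5.64% by at least as much as the smallest of the 6 differences. It held the highest value of all 6 libraries for 5 of 6 members (83.3%), where 24.4% of all genes peaked there. This library was singled out after the values were seen, and no test is attached to it.

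The same library was high for the rest of the pathway. Of 14 other enzymes, all with values, 14 were above the other untreated libraries in untreated replicate 2, by 0.06 to 1.03 on the log2 scale, and 11 of 14 (78.6%) had their highest value there. In the dox-treated group, replicate 1 was below the mean of the other dox-treated libraries for 5 members and above it for 1, with a median log2 difference of -0.25, and replicate 3 was above the mean of the others for 4 members. Untreated replicate 2 also held the lowest sum of granulocyte-monocyte markers among untreated libraries, 2402 CPM against 3961 and 5537 CPM. It had the highest sums of MEP markers (2712 CPM, with 5 of 7 genes, 71.4%, highest there) and of proliferation genes (6937 CPM, 56.2% of the 16 genes highest there), so a high level in this library was not confined to sterol genes. The part of these differences between libraries in the level of the members was not tested.

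Abca1 and Abcg1, exporters of cholesterol that are known to be induced when sterol is plentiful, ran the other way, and were picked out after their values were seen. Abca1 was at 3.14 CPM in untreated replicate 2 and at 8.25 to 15.1 CPM in the other 5 libraries. Abcg1 was at 5.73 CPM there and at 9.91 to 22.4 CPM elsewhere. Across the 6 libraries, which share the 2 conditions, the log2 level of Abca1 had a Pearson correlation of -0.93 with the mean of the members and that of Abcg1 -0.90, as a description.

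**Figure D2:**
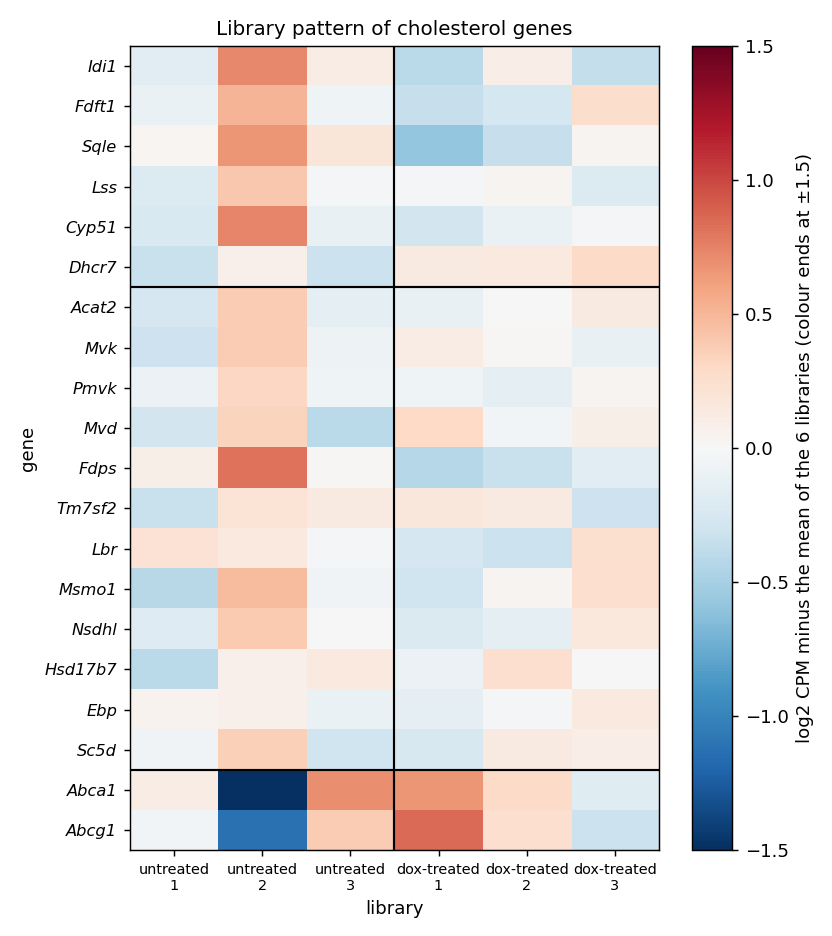
Deviation of each gene's log2 CPM from its mean over the 6 libraries (colour, red above and blue below), by library (horizontal axis) and gene (vertical axis), with the 6 members on top, 12 other enzymes of the pathway in the middle and Abca1 and Abcg1 at the bottom. Untreated replicate 2 is red for all 18 enzymes and blue for both exporters.

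The members were not equally alike. Fdft1 and Sqle had a Pearson correlation of 0.89 over the 6 libraries, Idi1 and Lss 0.88, and Cyp51 0.86 with both Idi1 and Fdft1. The lowest correlations without Dhcr7 were 0.46 for Fdft1 and Lss, 0.51 for Sqle and Lss and 0.58 for Idi1 and Fdft1. Dhcr7 had correlations of only -0.23 to 0.24 with the other 5 members. These points share libraries and scaling and are given as a description.

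Without untreated replicate 2, the members no longer leaned to lower values. The log2 fold changes became -0.19 for Idi1, -0.04 for Fdft1, -0.40 for Sqle and 0.52 for Dhcr7, beside the values for Lss and Cyp51 above, and the median of the 6 went from -0.24 to 0.005. Idi1, Fdft1, Sqle and Dhcr7 thus kept their direction, with Fdft1 close to no change, while Lss and Cyp51 reversed. In that limma fit 0 members passed the threshold.

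Of the 14 other enzymes of the pathway, 0 rose and 0 fell in limma's test, with 0 higher and 2 lower at an unadjusted p under 0.05 (Fdps among them), beside 15.6% and 13.6% of all genes, and their median log2 fold change was -0.01.

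Fdps, which encodes farnesyl pyrophosphate synthase between Idi1 and Fdft1, read 37.9, 40.3 and 45.6 CPM with dox and 53.8, 89.1 and 51.4 CPM without. The groups did not overlap, and the log2 fold change was -0.61 (limma adjusted p = 0.15). The groups were apart in the lower direction for 2 of the 14 enzymes, near the 18.2% of all genes.

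**Figure D3:**
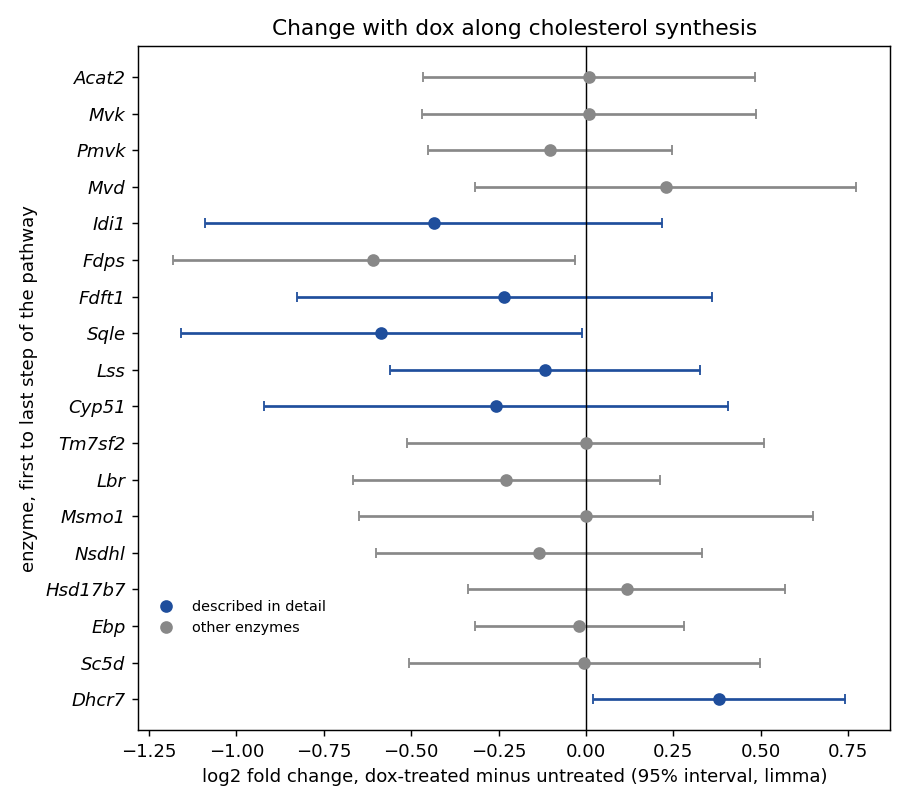
Log2 fold change of dox-treated over untreated MEPs (horizontal axis, points with 95% intervals from limma, n = 3 against 3) for 18 enzymes in the approximate order of the pathway (vertical axis), with the 6 members in blue and 12 other enzymes in grey. The intervals of Sqle and Fdps lie below 0 and that of Dhcr7 above it, while none of the 18 passes an adjusted p of 0.05.

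Genes that sense sterol did not move past the threshold: of 7 tested, 0 rose and 0 fell in limma's test, with 1 higher and 2 lower at an unadjusted p under 0.05, beside 15.6% and 13.6% of all genes. Insig1, which holds the SREBP complex in the endoplasmic reticulum and is itself a target of it, was at 19.6, 17.3 and 22.4 CPM with dox and at 31.2, 46.9 and 26.1 CPM without (log2 fold change -0.78, adjusted p = 0.0984). Srebf1, which encodes the SREBP better known for fatty acid synthesis, was at 151.6, 146.5 and 159.0 CPM with dox and at 183.9, 238.4 and 218.3 CPM without (-0.48, adjusted p = 0.0769), and Rai1 overlaps it on the opposite strand. Mbtps2, a protease that releases SREBPs, had a higher mean with dox (0.43, adjusted p = 0.0828), and Yy2 overlaps it on the same strand. Insig1 and Srebf1 had their highest level in untreated replicate 2, as did 5 of the 6 members and 3 of the 7 sterol-sensing genes (42.9%).

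Among 10 genes of cholesterol uptake and transport, 0 rose and 0 fell in limma's test, with 1 higher and 2 lower at an unadjusted p under 0.05, beside the same 15.6% and 13.6% of all genes. Scarb1, a receptor for high-density lipoprotein, was at 93.5, 95.8 and 94.2 CPM with dox and at 121.2, 160.3 and 141.9 CPM without, with no overlap (-0.57, adjusted p = 0.0550). Stard4, a carrier of sterol within the cell, was at 31.99, 31.9 and 25.7 CPM with dox and at 43.3, 80.0 and 46.3 CPM without (-0.87, adjusted p = 0.0933). Npc1, which exports cholesterol from lysosomes, had a higher mean with dox (0.43, adjusted p = 0.15).

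In the branch that leads from the same isoprenoids to ubiquinone, dolichol and protein prenylation, 0 of 8 genes rose and 0 fell in limma's test. At an unadjusted p under 0.05, 1 was higher and 3 were lower, where 15.6% and 13.6% of all genes stood. Of the 8, 7 had a lower mean with dox, and the median log2 fold change was -0.25. The groups were apart in the lower direction for 5 of 8 and in the higher for 1, beside 18.2% and 17.7% of all genes. Fntb, the beta subunit of farnesyltransferase, differed by -0.49 on the log2 scale (adjusted p = 0.0686), and the log2 difference was -0.44 for Pggt1b, which attaches geranylgeranyl groups to proteins (adjusted p = 0.13). Ggps1, the synthase of geranylgeranyl pyrophosphate, differed by 0.38 (adjusted p = 0.0804). Without dox-treated replicate 3, 4 genes of these lists that are named here passed the threshold in limma, Scarb1 (-0.57, adjusted p = 0.0437), Mbtps2 (0.48, adjusted p = 0.0413), Npc1 (0.56, adjusted p = 0.0397) and Ggps1 (0.40, adjusted p = 0.0412), in a fit that called 14.9% of all genes higher and 14.0% lower. With library weights, these 4 passed again. Insig1 (limma adjusted p = 0.028), Srebf1 (0.0128), Stard4 (0.0331) and Fntb (0.0131) passed there too. That fit called 20.8% of all genes higher and 21.5% lower. Over 19 alternative settings, Scarb1 passed in 7, Stard4 in 4, and Srebf1 and Fntb in 3. Insig1, Mbtps2, Npc1 and Ggps1 passed in 2, and Pggt1b in 0. Listed genes overlap Npc1 (3110002H16Rik) and Ggps1 (Arid4b) on the opposite strand and Fntb (Churc1) on the same strand, so their reads may be shared.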

How the data were processed

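The study sorted MEPs from bone marrow by cKit, Sca1, lineage markers, CD16/32 and CD34 and made 3 libraries a group. The authors trimmed adapters (cutadapt), quantified reads with RSEM on the NCBIM37 transcriptome and normalized with limma. The deposited values are log2 CPM on normalized library sizes with 0.5 reads added, and low genes were already absent, the lowest total of a listed gene being 47 reads. Dividing by the value of 1 read gave whole reads for 100% of values (tolerance 0.001 reads). Symbols were matched for 12067 of 12101 identifiers, and 34 have none.

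From these values, genes with at least 1 CPM in 3 libraries (12088) were fitted with limma 3.58.1 in R 4.3.3 (lmFit and eBayes, no block), with Benjamini-Hochberg adjustment over all of them (threshold 0.05). All fold changes include the 0.5 added reads. No count model was used. Single values were compared by a two-sided exact permutation test. The fit was tested on simulated data. At this depth 3 reads correspond to 0.193 to 0.273 CPM, and the number of libraries, not depth, limits precision. No pair of libraries of the same group agreed within counting noise.

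The members and gene lists were chosen with earlier results of these data known. Named genes were the members, and in each other cholesterol or lipid list every gene past the threshold and the 3 with the smallest p, Nanog, and the 5 genes most like the mean of the members. Some genes that this rule names are not reported here, and they stay in all counts. Alternatives were other filters, pseudocounts, scalings, variance models, library weights, a replicate block, and leaving out libraries. Replicates with the same number share no stated source. Promoters come from RefSeq (GRCm38.p6), with chromosome 18 left out, and expression coordinates from NCBIM37.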

Additional observations from a re-analysis of the deposited data

How the results depend on the processing

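Of 646 pairs of a result and one of 19 alternative settings, 550 stayed the same. For a gene this means the same direction and side of the threshold, and for a count a change within 1.5 times. For the median of the members it means a move smaller than 0.273, the SD of their mean level within a group. That median counted as the same in all 19 settings, although it changed sign to 0.005 without untreated replicate 2. Of the other pairs, 62 newly passed the threshold or grew past 1.5 times, 27 lost it or shrank as much, and 7, all of single genes, reversed. Against 555 genes higher and 384 lower, a mean-variance trend gave 909 and 747, library weights 2515 and 2601, a replicate block 53 and 29, the block with voom precision weights 575 and 351, and leaving out both dox-treated replicate 3 and untreated replicate 2 (chosen after seeing the data) 1631 and 1287. Leaving out 1 library in turn gave 92 to 1801 genes higher and 36 to 1687 lower. The upper ends are without dox-treated replicate 3, and without any other library the counts were 92 to 143 and 36 to 126. Members passing the threshold were 1 higher and 1 lower with library weights and 1 higher without both libraries. Other enzymes of the pathway lower with dox went from 0 to 4 with library weights, to 2 without both libraries, to 1 with a pseudocount of 1 CPM, a filter of 5 CPM, the trend, voom precision weights, quantile normalization and the replicate block with voom weights, and to 0 to 1 when 1 library was left out. Reversed were Lss with library weights (0.013), without untreated replicate 2 (0.055, range -0.246 to 0.055 with 1 library left out) and without both libraries (0.126), Cyp51 without untreated replicate 2 (0.045, range -0.436 to 0.045), Ppm1g under quantile normalization (0.011), and Nosip with plain read totals (0.052) and without untreated replicate 2 (0.027). The cause of these reversals was not tested.

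The median of the 6 members lay between -0.39 and 0.005 when 1 library was left out, at -0.13 with plain read totals and at -0.32 under quantile normalization. Plain read totals moved the median of all genes from -0.03 to 0.08. Same-numbered libraries of the 2 groups deviated from their group means with correlations of 0.02, -0.12 and -0.30, and differently numbered ones with -0.20 to 0.24. With 3 libraries a group, these values cannot show whether same-numbered libraries share a source. With the replicate block, 0 members passed, with adjusted p-values of 0.23 for Idi1, 0.63 for Fdft1, 0.25 for Sqle, 0.72 for Lss, 0.57 for Cyp51 and 0.30 for Dhcr7. The replicate spread of 3 libraries a group limits what can be seen: the 95% intervals of the members reach from -1.16 to 0.74 on the log2 scale.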

Other observations

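In fatty acid synthesis, the other lipid pathway under SREBP control, some genes passed the threshold, which no cholesterol enzyme did; the difference between the pathways was not tested. Of 9 genes tested, 0 rose and 3 fell in limma's test, beside 3.18% of all genes, and the median log2 fold change was -0.45. Scd1, a desaturase that makes oleate, was at 4.60, 5.02 and 5.23 CPM with dox and at 21.0, 46.8 and 25.6 CPM without (log2 fold change -2.57, adjusted p = 0.0127). Scd2, its close paralog, was at 63.6, 58.6 and 34.0 CPM with dox and at 217.5, 398.0 and 307.0 CPM without (-2.57, adjusted p = 0.015), and reads could be split between the pair. Fasn, the fatty acid synthase, was at 233.1, 254.0 and 232.9 CPM with dox and at 353.4, 465.0 and 402.8 CPM without (-0.75, adjusted p = 0.0321). The groups were apart for all 3 genes. With 1 library left out, Fasn stayed past the threshold only without dox-treated replicate 3 (adjusted p up to 0.11 otherwise), Scd1 missed it narrowly without dox-treated replicate 1, dox-treated replicate 2 or untreated replicate 3 (0.0528 to 0.0534), and Scd2 without dox-treated replicate 2 or untreated replicate 3 (0.0522 and 0.0646). Fasn also missed it under quantile normalization (0.0527) and with plain read totals (0.0504), and with the replicate block all 3 genes did at the same fold changes (limma adjusted p = 0.0551 for Scd1, 0.0645 for Scd2 and 0.11 for Fasn), while with the block and voom precision weights all 3 passed (0.00378, 0.00277 and 0.0184). As for the cholesterol enzymes, untreated replicate 2 was the highest library for 8 of the 9 genes.

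The genes whose log2 levels were most like the mean of the 6 members over the 6 libraries, among 9974 with a mean of at least 5 CPM, were Tubg1 (Pearson correlation 0.98), Mthfd2 (0.98), Nosip (0.97), Ppm1g (0.97) and Mgat4a (0.97). Mthfd2, a mitochondrial enzyme of folate metabolism, was at 90.6 CPM in untreated replicate 2 and at 41.9 to 54.6 CPM in the other libraries. Of the other cholesterol enzymes, Nsdhl (0.93, rank 25) and Pmvk (0.92, rank 28) came nearest. With 6 libraries and 9974 genes, high correlations arise in many genes, and these are given as a description.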
